A study of Saccharomyces cerevisiae with 4 samples.

Results

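The genes examined were 9 genes for the segregation of chromosomes at meiosis I, taken by name from the deposited tables: the monopolin genes MAM1, CSM1 and LRS4, the regulators SPO13, SGO1 and BUB1, and the chromosomal passenger genes IPL1, SLI15 and BIR1. All 9 were found, out of 6664 nuclear genes, and all 9 passed the filter on low values, which left 5772 genes to test. RNA was sequenced from budding yeast (Saccharomyces cerevisiae) of the SK1 background, known for its fast and even sporulation, harvested 4 h after transfer to sporulation medium at 30 °C. The strain ndt80pch2 carried deletions of NDT80 and PCH2, and the strain ndt80, its control, carried the deletion of NDT80, with 2 samples each. The deletion of PCH2 is named in the sample titles, while the other labels of those samples name the deletion of NDT80 alone. Ndt80 is the transcription factor that takes cells out of meiotic prophase, so cells of both strains are held before the divisions in which these genes act. Pch2 is an AAA+ ATPase that remodels proteins of the meiotic chromosome axis. The labels do not state whether the samples of 1 strain were independent cultures, so each p measures only how far these samples differ, and that difference may be technical.

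At meiosis I, sister kinetochores attach to the same pole and homologues part, while cohesin near the centromeres is kept for meiosis II. Monopolin clamps the sister kinetochores together, with Mam1 as its meiosis-specific subunit and Csm1 and Lrs4 as nucleolar proteins that join it. Spo13, also specific to meiosis, is needed to keep monopolin and centromeric cohesin in place. Shugoshin (Sgo1) shields the cohesin subunit Rec8 with the phosphatase PP2A, and the kinase Bub1 marks the chromatin to which Sgo1 binds. The chromosomal passenger complex corrects wrong attachments: Ipl1 is the Aurora B kinase, Sli15 its INCENP-like scaffold and activator, and Bir1 the survivin-like subunit.

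The deposited tables hold 1 value per gene and strain, from which the reads of each library were recovered. The libraries are called C and D in ndt80pch2 and A and B in ndt80, because the values do not show which replicate number each has. Reads over nuclear genes came to 1708432 in C and 1709870 in D, against 2108540 in A and 2365602 in B. PCH2 had 0 and 0 reads in ndt80pch2, which allows up to 1.26 and 1.29 TPM with 3 reads as the limit for a count of 0, against 710 and 776 reads in ndt80. NDT80 had 0 reads in all 4 libraries. TPM here means reads per kilobase of coding sequence, scaled to equal totals, so levels of different genes may be compared. The median log2 fold change of all tested genes was -0.15, and fold changes below are given relative to that median, while each p belongs to the change before the subtraction.

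SPO13 was the most abundant of the 9 transcripts in every library and BUB1 the least abundant. SPO13 (YHR014W, chromosome VIII, 132047 to 132922) had 250.1 and 342.1 TPM in ndt80pch2, against 258.2 and 306.4 TPM in ndt80. The strains overlapped, and library D was the highest of the 4. BUB1 (YGR188C, chromosome VII, 872044 to 875109) had 17.5 and 18.1 TPM in ndt80pch2, against 20.3 and 23.6 TPM in ndt80. Averaged over the 4 libraries, SPO13 stood 14.6-fold above BUB1. SPO13 was more abundant than 89.3% and 92.2% of tested genes in ndt80pch2 and than 89.1% and 90.9% in ndt80. BUB1 was above 18.7% and 20.5% of tested genes in ndt80pch2 and above 19.0% and 22.5% in ndt80. From high to low mean level, the 9 genes ran SPO13, SLI15, BIR1, CSM1, IPL1, MAM1, SGO1, LRS4 and BUB1. The ranges over the 4 libraries of neighbours in this order were apart, except for BIR1 and CSM1, CSM1 and IPL1, and SGO1 and LRS4, which overlapped. In bulk RNA, fewer cells expressing a gene and less RNA per cell cannot be told apart.

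**Figure D1:**
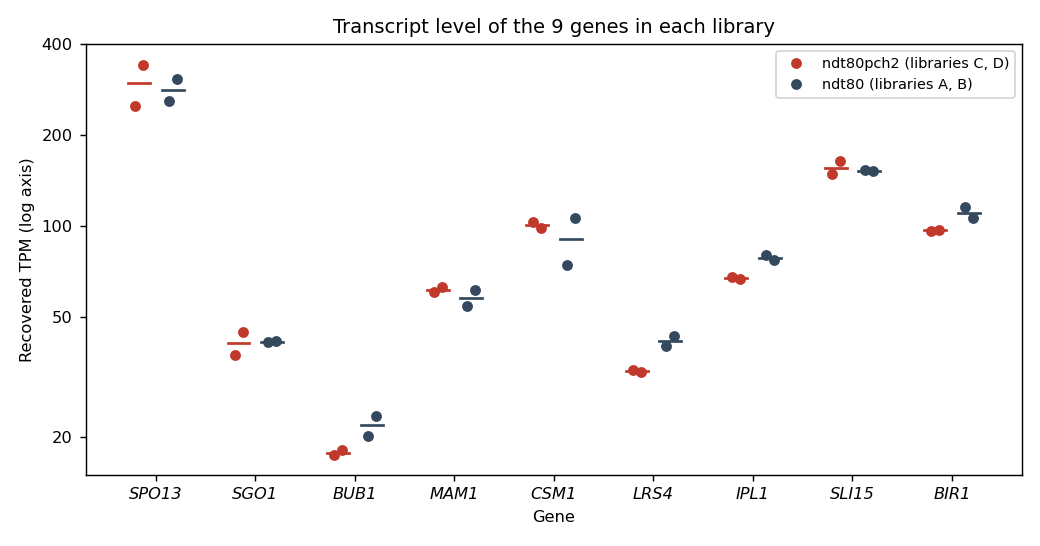
Level of each of the 9 genes as recovered TPM on a log axis, with 1 point per library and a short line at the mean of each strain. SPO13 lies between 250.1 and 342.1 TPM and BUB1 between 17.5 and 23.6 TPM, and the 2 strains sit close together at every gene.

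The start regions of 4 genes are shown because they hold the searched motifs at the genes that belong to meiosis alone (SPO13 and MAM1), the other gene with a URS1 core (CSM1) and the 1 gene with an MCB (IPL1). Each sequence holds the 250 bases before the start codon and the first 50 coding bases, 5′ to 3′ on the gene's strand, from the S288C reference genome of RefSeq (build R64), not from SK1. The regions are chrVIII:131797-132096 on the plus strand for SPO13, chrV:372076-372375 on the plus strand for MAM1, chrIII:263142-263441 on the plus strand for CSM1 and chrXVI:157544-157843 on the minus strand for IPL1. Capitals mark matches on either strand to GGCGGC (the core of URS1, where Ume6 binds early meiotic genes), CACAAA (the core of the middle sporulation element, where Ndt80 binds), ACGCGT (MCB, of the G1/S factor MBF) and CGCGAAA (SCB, of SBF).
SPO13: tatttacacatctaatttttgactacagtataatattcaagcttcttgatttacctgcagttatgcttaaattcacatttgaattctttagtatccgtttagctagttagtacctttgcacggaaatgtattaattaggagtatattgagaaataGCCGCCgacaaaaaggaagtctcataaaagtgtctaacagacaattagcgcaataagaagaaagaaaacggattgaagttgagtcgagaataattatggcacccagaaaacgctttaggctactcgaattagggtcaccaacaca
MAM1: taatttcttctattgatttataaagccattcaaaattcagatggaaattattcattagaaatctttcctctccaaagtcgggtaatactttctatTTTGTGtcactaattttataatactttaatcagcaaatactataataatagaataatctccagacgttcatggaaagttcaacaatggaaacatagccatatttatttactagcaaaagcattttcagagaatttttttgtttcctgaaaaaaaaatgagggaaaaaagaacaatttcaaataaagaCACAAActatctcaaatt
CSM1: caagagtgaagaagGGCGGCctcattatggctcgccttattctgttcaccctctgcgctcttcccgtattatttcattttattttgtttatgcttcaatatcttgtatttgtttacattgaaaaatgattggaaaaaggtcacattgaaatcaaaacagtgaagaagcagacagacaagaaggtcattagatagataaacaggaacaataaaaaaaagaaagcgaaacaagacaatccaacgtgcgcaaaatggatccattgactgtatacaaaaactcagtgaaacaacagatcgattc
IPL1: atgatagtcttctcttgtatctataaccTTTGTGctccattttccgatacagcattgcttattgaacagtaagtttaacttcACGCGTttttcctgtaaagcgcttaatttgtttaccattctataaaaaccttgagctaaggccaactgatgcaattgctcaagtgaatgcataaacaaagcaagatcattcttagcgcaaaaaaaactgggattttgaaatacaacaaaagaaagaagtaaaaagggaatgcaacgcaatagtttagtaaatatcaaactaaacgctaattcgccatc
The URS1 core began 95 bases before the start codon in SPO13, on the opposite strand, and 236 bases before it in CSM1. MAM1 had the core of the middle sporulation element 155 bases before its start codon, on the opposite strand, and again inside its coding sequence. IPL1 had that core 222 bases before its start codon, also on the opposite strand, and the MCB 168 bases before it. Among the other 5 genes, SGO1 held CACAAA and SLI15 held CGCGAAA, and LRS4, BUB1 and BIR1 had no match in this window. Of 6001 regions of the same length at nuclear protein-coding genes, 5.13% held the URS1 core, 18.8% CACAAA, 3.07% the MCB and 3.60% the SCB, and of the 9 regions 2, 3, 1 and 1 did. No match overlapped a match to another motif in the 9 regions. These are matches of letters, and binding was not measured.

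The deposited ndt80 column cannot be set against the ndt80pch2 column row by row for these genes. From row 94 on, each ndt80 value averages library A of the gene named in that row with library B of another gene, which stands 9 to 17 rows away for the 9 genes. The BUB1 row was deposited as 61.6 for ndt80. It averages 20.3 TPM of BUB1 in library A with 102.9 TPM of BUD20 in library B. Read as printed, BUB1 would be 0.289 times as high in ndt80pch2 as in ndt80, against 0.811 times in the recovered means. The CSM1 row, deposited as 43.0, averages 74.1 TPM of CSM1 with 11.97 TPM of CTF19, and the printed ratio of 2.34 becomes 1.12. The SPO13 row, deposited as 148.2, averages 258.2 TPM of SPO13 with 38.2 TPM of SPP381, and the printed ratio of 2.00 becomes 1.05. The MAM1 row, deposited as 109.0, averages 54.4 TPM of MAM1 with 163.6 TPM of MBR1, and the printed ratio of 0.565 becomes 1.06. The partners of the other rows were LSM5 for LRS4, SHM2 for SGO1, IRC19 for IPL1, SLX8 for SLI15 and BMT2 for BIR1. As printed, 4 of the 9 genes were over 1.5-fold apart between the strains, and after separation 0 were. The direction turned round for 4 of the 9: MAM1, SGO1, IPL1 and BIR1. These ratios are without subtraction of the median of all genes. For SGO1 the direction depends on that step: its recovered ratio was 0.988, and its log2 fold change relative to the median was 0.12.

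**Figure D2:**
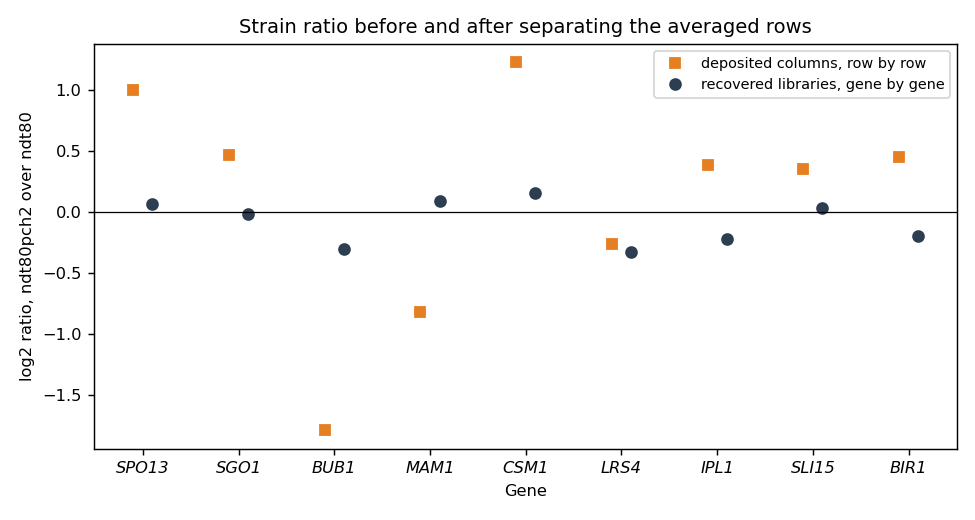
Ratio of ndt80pch2 over ndt80 for each of the 9 genes on a log2 axis, as printed in the deposited columns (squares) and from the recovered libraries (circles). The printed ratios run from 0.289 to 2.34, and the recovered ratios from 0.796 to 1.12.

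Whether loss of Pch2 changes the transcripts of the meiosis I segregation machinery in prophase-arrested cells was asked of the 4 recovered libraries. None of the 9 genes passed: 0 were called higher and 0 lower by limma-trend at an adjusted p under 0.05, against 0% of all tested genes called higher and 0.0173%, PCH2 alone, called lower. At an unadjusted p under 0.05 there were also 0 of 9 by limma-trend, against 15.9% of all tested genes, and 0 of 9 by limma-voom, against 14.9%, and after adjustment limma-voom on the recovered reads called 0 of 9, against 0.485%. The 15.9% (915 genes) still holds the shift of all genes. After median-of-ratios factors it was 592 of 5772 genes by limma-trend, and 0 of the 9. Adjusted p-values of the 9 ran from 0.331 (LRS4) to 0.946 (SGO1) by limma-trend. These belong to the changes before the median of all genes is subtracted. After median-of-ratios factors, limma-trend adjusted p-values ran from 0.560 (MAM1) to 0.898 (BIR1). LRS4 was then at 0.684 and IPL1 at 0.831, so the order of the genes by p depends on that shift. The 95% intervals of the 9 folds, relative to all genes, reached down to 0.647 (BUB1) and up to 1.69 (CSM1), so a 2-fold difference lay outside each of them. These intervals are not adjusted for the number of genes and take the median of all genes as fixed. They rest on 2 libraries per strain, so they do not exclude such a difference. The interval of IPL1 was the narrower 0.792 to 1.15. Leaving out 1 library moved the log2 fold change of each of the 9 genes by over 1.5 times or past 0, and each is given below with its lowest and highest value over the 4 such fits. The median log2 fold change of the 9 genes was 0.12 relative to the median of all genes.

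**Figure D3:**
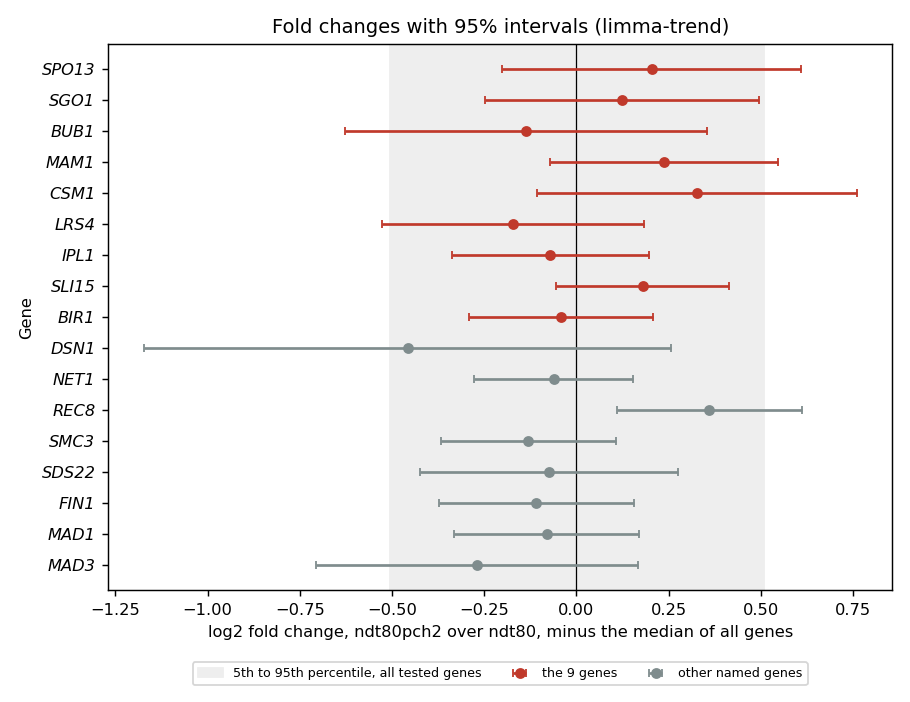
Log2 fold change of ndt80pch2 over ndt80, after subtraction of the median of all genes, for the 9 genes and 8 other named genes, with 95% intervals from limma-trend. The grey band runs from -0.50 to 0.51, the 5th to 95th percentile of all tested genes, and the 9 estimates lie between -0.17 and 0.33.

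Among the monopolin genes, LRS4 was lower in both ndt80pch2 libraries, and MAM1 and CSM1 overlapped between strains. LRS4 (YDR439W, chromosome IV, 1339676 to 1340719) had 33.5 and 32.9 TPM in ndt80pch2, against 40.1 and 43.3 TPM in ndt80. The strains did not overlap, and the log2 fold change was -0.17 (95% interval -0.53 to 0.18, limma adjusted p = 0.331). It ran from -0.23 without library A to -0.11 without B. These values rest on 49 and 47 reads in ndt80pch2, against 72 and 85 reads in ndt80. The exact Poisson interval of library C, 24.8 to 44.3 TPM, which covers counting error only, holds the level of both ndt80 libraries.

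MAM1 (YER106W, chromosome V, 372326 to 373234) had 60.5 and 62.7 TPM in ndt80pch2, against 54.4 and 61.4 TPM in ndt80. Library A was the low one, and the log2 fold change was 0.24 (95% interval -0.071 to 0.55, limma adjusted p = 0.723), or 0.15 without A and 0.33 without B. CSM1 (YCR086W, chromosome III, 263392 to 263964) had 103.4 and 98.2 TPM in ndt80pch2, against 74.1 and 106.7 TPM in ndt80. Here the ndt80 libraries lay on either side of ndt80pch2, and their gap was wider than that of 91.0% of tested genes. Its log2 fold change was 0.33 (95% interval -0.11 to 0.76, limma adjusted p = 0.606). It was 0.064 without library A and 0.59 without library B, called in neither.

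Of the regulators, SPO13 and SGO1 overlapped between the strains, and BUB1 was lower in both ndt80pch2 libraries. SPO13 averaged 296.1 ± 65.1 TPM in ndt80pch2 and 282.3 ± 34.1 TPM in ndt80 (SD, n = 2 each; limma adjusted p = 0.871). The gap between libraries C and D at SPO13 was wider than that of 80.04% of tested genes. The log2 fold change of SPO13 was 0.20 with all libraries, -0.039 without library D and 0.44 without library C. The summed level of 12 early meiosis genes (IME1, IME2, REC8, HOP1, RED1, ZIP1, SPO11, DMC1, MEI5, SAE3, REC114 and MEK1) was 5837 TPM in C and 6741 TPM in D, against 5897 TPM in A and 6307 TPM in B. These sums have the order of SPO13, D, B, A and C from high to low, but without DMC1 they were 5606 TPM in C and 6489 TPM in D, against 5421 TPM in A and 5817 TPM in B, and that order was lost. The part of this list in the spread of SPO13 was not tested. SGO1 (YOR073W, chromosome XV, 464771 to 466543) had 37.4 and 44.5 TPM in ndt80pch2, against 41.3 and 41.7 TPM in ndt80, with both ndt80 libraries between those of ndt80pch2. The log2 fold change was 0.12 (95% interval -0.25 to 0.50, limma adjusted p = 0.946), or -0.015 without D and 0.25 without C. BUB1, described above, did not overlap between the strains, and a log2 fold change of -0.14 was found (95% interval -0.63 to 0.35, limma adjusted p = 0.480) on 75 and 76 reads in ndt80pch2, against 107 and 136 reads in ndt80. Without library B it was -0.029 and without library A -0.24.

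Of the passenger genes, IPL1 and BIR1 were lower in both ndt80pch2 libraries and SLI15 overlapped. IPL1 (YPL209C, chromosome XVI, 156490 to 157593) had 67.9 and 66.9 TPM in ndt80pch2, against 80.1 and 77.0 TPM in ndt80. Its log2 fold change was -0.070 (95% interval -0.34 to 0.20, limma adjusted p = 0.357), or -0.046 without A and -0.094 without B. BIR1 (YJR089W, chromosome X, 587718 to 590582) had 96.7 and 97.2 TPM in ndt80pch2, against 115.5 and 106.1 TPM in ndt80. Its log2 fold change was -0.042 (95% interval -0.29 to 0.21, limma adjusted p = 0.379), or 0.016 without A and -0.099 without B. Neither gene overlapped between the strains before scaling, and after subtraction of the shift of all genes both changes were close to 0. SLI15 (YBR156C, chromosome II, 551104 to 553200) had 148.7 and 163.5 TPM in ndt80pch2, against 153.1 and 151.8 TPM in ndt80. The ndt80 libraries lay between those of ndt80pch2, and the log2 fold change was 0.18 (95% interval -0.054 to 0.41, limma adjusted p = 0.871), or 0.095 without D and 0.255 without C.

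In all, 4 of the 9 genes (LRS4, BUB1, IPL1 and BIR1) were lower in ndt80pch2 with no overlap between the strains, a share near the 42.5% of all tested genes, and 0 were higher, against 9.39%. After median-of-ratios factors, which remove the shift of all genes, 3 were lower (LRS4, BUB1 and IPL1), against 21.6%, and 3 were higher (MAM1, CSM1 and SLI15), against 22.3%.

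Ratios between genes do not depend on how libraries are scaled. The 7 pairs below were chosen after the levels of the 9 genes had been seen, and the shares of all genes beside them were counted only in the direction observed. CSM1 stood at 3.09 and 2.98 times LRS4 in ndt80pch2, against 1.85 and 2.47 times in ndt80, and MAM1 at 1.80 and 1.91 times LRS4 in ndt80pch2, against 1.36 and 1.42 times in ndt80. Both ratios to LRS4 were higher in ndt80pch2 with no overlap, as were the ratios to LRS4 of 44.9% of all other tested genes. MAM1 stood at 0.585 and 0.639 times CSM1 in ndt80pch2, against 0.734 and 0.576 times in ndt80, which overlapped. Within the passenger complex, IPL1 stood at 0.456 and 0.409 times SLI15 in ndt80pch2, against 0.523 and 0.507 times in ndt80. BIR1 stood at 0.650 and 0.595 times SLI15 in ndt80pch2, against 0.754 and 0.699 times in ndt80. Both ratios to SLI15 were lower in ndt80pch2 with no overlap, as were the ratios to SLI15 of 44.9% of other genes. IPL1 stood at 0.702 and 0.688 times BIR1 in ndt80pch2, against 0.693 and 0.726 times in ndt80, which overlapped. SGO1 stood at 2.14 and 2.46 times BUB1 in ndt80pch2, against 2.04 and 1.77 times in ndt80, higher with no overlap, as for 36.2% of other genes. Of the 7 ratios, 5 did not overlap between the strains, each with p = 0.333 in a 2-sided exact permutation test (0.467 after Benjamini-Hochberg adjustment over the 7), the smallest p that 2 libraries against 2 can give. Ratios that share LRS4 or SLI15 are not independent of each other, so the 5 are not separate results.

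**Figure D4:**
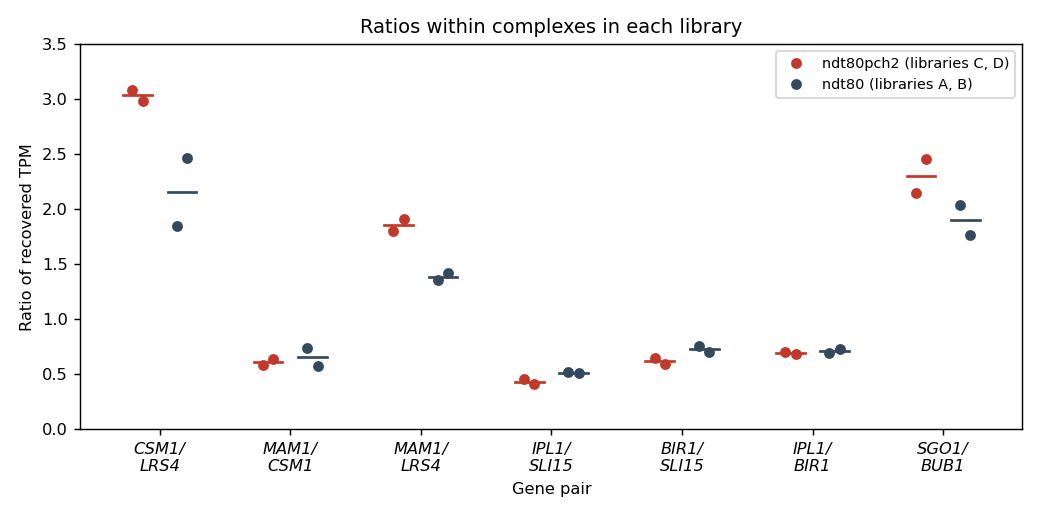
Ratio of recovered TPM for 7 gene pairs, with 1 point per library and a short line at the mean of each strain. CSM1 over LRS4 lies at 3.09 and 2.98 in ndt80pch2 and at 1.85 and 2.47 in ndt80, while IPL1 over BIR1 lies between 0.688 and 0.726 in all 4 libraries.

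The 33 other genes of the pathway, in 4 lists, were also without a call: 0 passed limma-trend or limma-voom over all genes. At an unadjusted p under 0.05 there was 1 by limma-trend, SMC3, against 15.9% of all tested genes, and 4 by limma-voom, DSN1, REC8, SMC3 and ESP1, against 14.9%. The limma-trend counts still hold the shift of all genes. Among them 19 were lower in ndt80pch2 with no overlap (42.5% of all tested genes were) and 2 higher (9.39%). After median-of-ratios factors 5 were lower (21.6%) and 8 higher (22.3%). The median log2 fold change relative to all genes was -0.026 over 9 partners of monopolin, 0.096 over 13 genes of cohesin and its protection, 0.028 over 6 genes around the passenger complex and 0.010 over 5 spindle checkpoint genes. The genes named here are the 2 of smallest unadjusted p in each list. That p belongs to the change before the median of all genes is subtracted, so the rule favours genes that were lower. REC8 alone among them was higher relative to all genes, so they do not stand for the direction of the lists.

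Among the partners of monopolin, DSN1, the kinetochore subunit that Csm1 binds, had 18.6 and 11.8 TPM in ndt80pch2, against 19.5 and 27.3 TPM in ndt80 (log2 fold change -0.46, limma adjusted p = 0.347), and the change was -0.17 without library D and -0.75 without C. NET1, the nucleolar anchor of Cdc14, had 245.3 and 232.8 TPM in ndt80pch2, against 284.7 and 268.3 TPM in ndt80 (log2 fold change -0.061, limma adjusted p = 0.319). Both were lower in ndt80pch2 without overlap, and NET1 by little more than all genes. After median-of-ratios factors both overlapped. The DSN1 values rest on 45 and 28 reads in ndt80pch2, against 58 and 89 reads in ndt80. In the cohesin list, REC8, the meiotic cohesin subunit that Sgo1 protects, had 912.8 and 1051 TPM in ndt80pch2, against 830.8 and 858.6 TPM in ndt80 (log2 fold change 0.36, limma adjusted p = 0.346). SMC3, a core cohesin subunit, had 135.3 and 122.9 TPM in ndt80pch2, against 156.0 and 157.0 TPM in ndt80 (log2 fold change -0.13, limma adjusted p = 0.289). REC8 was thus higher and SMC3 lower with no overlap, and neither passed. The interval of REC8 relative to all genes, not adjusted for the number of genes, ran from 0.11 to 0.61, while its limma adjusted p after median-of-ratios factors was 0.362 (0.198 to 0.769 over the alternatives).

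Around the passenger complex, FIN1, a spindle protein, had 83.9 and 93.5 TPM in ndt80pch2, against 108.2 and 103.8 TPM in ndt80 (log2 fold change -0.11, limma adjusted p = 0.319). SDS22, a regulator of the phosphatase Glc7 that opposes Ipl1, had 52.6 and 65.4 TPM in ndt80pch2, against 69.8 and 67.4 TPM in ndt80 (log2 fold change -0.074, limma adjusted p = 0.447). NBL1, the borealin-like subunit of the same complex, was near the limit of these libraries, with 3 and 1 reads in ndt80pch2, against 5 and 1 reads in ndt80, and was named after its values were seen. Of the checkpoint genes, MAD3 had 36.4 and 35.9 TPM in ndt80pch2, against 56.3 and 41.9 TPM in ndt80 (log2 fold change -0.27, limma adjusted p = 0.319). It was -0.062 without library A, the higher of the ndt80 pair, and -0.47 without B. MAD1 had 78.0 and 81.2 TPM in ndt80pch2, against 93.8 and 93.1 TPM in ndt80 (log2 fold change -0.081, limma adjusted p = 0.330). MAD3 and MAD1 were lower in ndt80pch2 with no overlap.

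The genes whose levels over the 4 libraries lay nearest to SPO13, by Euclidean distance of log2(TPM + 1), were MSH4 (0.15), ABF2 (0.15) and AHC2 (0.20). MSH4, a meiotic crossover gene, had 251.4 and 317.1 TPM in ndt80pch2, against 273.4 and 295.9 TPM in ndt80. Nearest to MAM1 were KIP1 (0.10), TIM17 (0.12) and GEA2 (0.13). These distances over 4 libraries describe like levels and nothing more.

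Among 4 marker lists of cell states, limma-trend called no gene and limma-voom called 1, the early meiosis gene DMC1, which encodes the meiotic recombinase. DMC1 had 230.8 and 252.4 TPM in ndt80pch2, against 476.2 and 490.8 TPM in ndt80. Its log2 fold change was -0.85 relative to all genes (95% interval -1.07 to -0.63), with an adjusted p of 0.0703 by limma-trend and 0.000491 by limma-voom (0.000491 to 0.760 over the alternatives). The median log2 fold change relative to all genes over the 12 early meiosis genes was 0.24, in the opposite direction to DMC1. Of 12 markers of dividing vegetative cells, 0 were called by either tool, and their summed level was 161.7 and 174.4 TPM in ndt80pch2, against 177.8 and 214.7 TPM in ndt80. Of 12 haploid or mating markers, MFA1 and MFA2 had 0 reads in all 4 libraries, and the summed level was 64.6 and 62.1 TPM in ndt80pch2, against 79.8 and 85.6 TPM in ndt80. MFA1 and MFA2 are only 111 and 117 bases long, so a count of 0 allows a higher TPM there than at PCH2 (1695 bases). The 12 middle sporulation genes summed to 1209 and 1253 TPM in ndt80pch2, against 1251 and 1201 TPM in ndt80, with 0 called by either tool. The vegetative and haploid sums were lower in both ndt80pch2 libraries than in either ndt80 library, and the middle sporulation sums overlapped. These sums still hold the shift of all genes, and 42.5% of all tested genes were lower with no overlap. Relative to all genes, the median log2 fold change was 0.003 over the vegetative markers and -0.17 over the tested haploid ones. The part of these cell states in the values of the 9 genes was not tested.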

How the data were processed

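RNA was sequenced from 2 samples of ndt80pch2 and 2 of ndt80, grouped by title. The submitters' processing notes name DESeq2 2.11.40.6, HTSeq 0.9.1, FastQC and HISAT2 2.1.0, and the build R64 (sacCer3), with no roles. The authors deposited 1 TPM-like value per gene and strain in an unnamed column, whose unit was inferred from the values. Times coding length, 99.98% of ndt80pch2 values above 0 are sums of whole multiples of 2 steps, 1 per library, within 0.55 of the last digit. From row 94, this held for 99.95% of ndt80 values if the second term came from the same row number after the 18 mitochondrial rows were taken out, against 9.37% as printed. Solving gave reads per library for 6635 of 6664 nuclear genes, with 29 left out. The annotated length failed for 12 genes, of which 11 had a single other length that worked. Numerical tolerance and these lengths were settled after the values had been seen, and the reads of the 9 genes did not change.

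Genes with a mean TPM of 1 or more were fitted as log2(TPM + 1), which understates changes of low genes, by limma-trend (limma 3.58.1, R 4.3.3; genotype only) with Benjamini-Hochberg adjustment. Alternatives were limma-voom, a pseudocount of 0.1, no filter, a minimum mean of 10, median-of-ratios factors and leaving out each library. Recovery and fit were tested on simulated data. Named genes were the 9, the deleted genes, genes averaged with the 9, the 2 of smallest p in each of 4 lists, any list gene called by limma-voom and the 3 nearest to SPO13 and to MAM1. Genes and lists were chosen with earlier results of these data known. HEH1 is listed as SRC1. Each of the 9 genes has 1 coding exon, with the same coordinates in the R64 annotation, and overlapped no other gene. Python 3.11.15, numpy 2.4.6, pandas 2.3.3, scipy 1.17.1 and matplotlib 3.10.9 were used.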

Additional observations from a re-analysis of the deposited data

How the results depend on the processing

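The count of the 9 genes called was 0 under all 9 alternatives. Unadjusted p-values are compared here only for the alternatives that kept all 4 libraries. Among these, 2 of the 9 were under 0.05 with no filter (LRS4 and IPL1), against 975 of all 6635 genes in that fit. Over all genes, limma-trend called 1, PCH2. The count was 28 by limma-voom, 25 with no filter, 4 at the higher minimum of 10 TPM, and 0 to 1 when 1 library was left out, where PCH2 was not called without A or without B. The cause of these moves was not tested. With 1 library left out, 4 uncalled log2 fold changes relative to all genes crossed 0: BIR1 ran from -0.099 without B to 0.016 without A, SGO1 from -0.015 without D to 0.25 without C, SPO13 from -0.039 without D to 0.44 without C, and SDS22 from -0.25 without D to 0.087 without C. In these fits the lone library of a strain is assumed to vary like the other strain. No paired analysis was possible because the recovered libraries carry no replicate number. Of the 17 fold changes of the 9 genes and the 8 others named from the lists, 16 moved by over 1.5 times or crossed 0 when 1 library was left out, REC8 being the exception. REC8 came close to this limit, with 0.36 from all libraries, 0.24 without D and 0.47 without C. The limit is a ratio, so a log2 fold change near 0 passes it on a small move (IPL1, -0.070 from all libraries and -0.046 without A). Reads per library at LRS4, the gene of the 9 with fewest reads, were 47 to 85. The sum of early meiosis genes without DMC1 was added after the values had been seen.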
